A study of Mus musculus with 27 samples.

Results

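The 10 libraries described here are the injected and the contralateral cortex of the 5 mice that received R55, and each mouse gave both, so the hemispheres form 5 pairs. They were chosen by the treatment in their labels and paired by the letter of the mouse (P, Q, R, AA and AB). They are 10 of the 27 libraries and 5 of the 13 complete hemisphere pairs analysed, the others being 4 pairs of vehicle mice (8 libraries), 4 pairs of R33 mice (8 libraries) and 1 R33 mouse with its injected hemisphere only. All mice were 16-week-old female 5xFAD mice on a C57BL6 background, including the vehicle mice, so no library here comes from a mouse without the transgenes. 5xFAD mice carry human transgenes with familial Alzheimer's disease mutations, APP among them, under the neuronal Thy1 promoter. Each mouse received 500 nL into the lateral parietal associative cortex of 1 hemisphere, either R55 at 10 mM, R33 at 10 mM, or vehicle with the same solvents (DMSO and sulfobutylether beta-cyclodextrin in saline) and no drug. A block of cortex around the injection site and a block from the other hemisphere were taken 24 h later. The contralateral block shares the animal, the transgenes and any drug or solvent that spread through the brain, so the comparison asks what differed between the injected tissue and the opposite cortex of the same mouse, with needle, fluid and R55 together on 1 side.

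R55 and R33 are thiophene thioureas made as pharmacological chaperones of retromer. Retromer is the endosomal coat whose core, VPS35, VPS26 and VPS29, returns membrane proteins from endosomes to the Golgi or the cell surface, together with sorting nexins and the actin-nucleating WASH complex. Its cargo includes sortilin-family receptors that bind APP, and its loss is known to raise amyloid processing in neurons. A needle passed into cortex is itself known to activate astrocytes and microglia around the track and to induce acute-phase and chemokine genes within a day.

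The unit is FPKM, fragments per kilobase of gene scaled to the counted fragments of the library. The R55 libraries held 21779286 to 33625262 fragments (median 27526970), and whole fragments and gene lengths were inferred from the FPKM values. Differences are log2(FPKM + 1) of the injected minus the contralateral hemisphere, fitted with limma with the mouse as a block, over the 12976 genes that averaged 1 FPKM or more. Standard errors (SE), p-values and 95% intervals are from that fit, and p-values printed for single genes are adjusted over all tested genes. The tissue was checked against a marker of cortex. Slc17a7, the vesicular glutamate transporter of cortical excitatory neurons, measured 473 to 584 FPKM in the 10 libraries. Markers of neighbouring tissue differed strongly between blocks, and they are given below beside the genes they accompany. In bulk tissue, fewer cells of a type and less RNA per cell cannot be told apart.

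No gene passed the adjusted threshold between the hemispheres of the R55 mice. Of 12976 tested genes 0 were called at an adjusted p under 0.05 (0%), the smallest adjusted p was 0.571 (limma), and the median SE of a gene was 0.0871 on the log2 scale. At an unadjusted p under 0.05 there were 1031 genes, of which 374 were higher (2.88% of tested genes) and 657 lower (5.06%) in the injected hemisphere. In 5 of 5 pairs, 579 genes were higher (4.46%) and 683 lower (5.26%). Both conditions together were met by 235 genes that were higher and 401 that were lower. Whatever the p, 5887 of the 12976 genes had a mean difference above 0 and 7089 below. The counts given for lists below are to be read beside these shares. Without mouse AB the number at an unadjusted p under 0.05 was 533 (120 higher, 413 lower), and without mouse Q it was 760. The genes and lists below are therefore described by their values, and none of them is a called change.

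**Figure D1:**
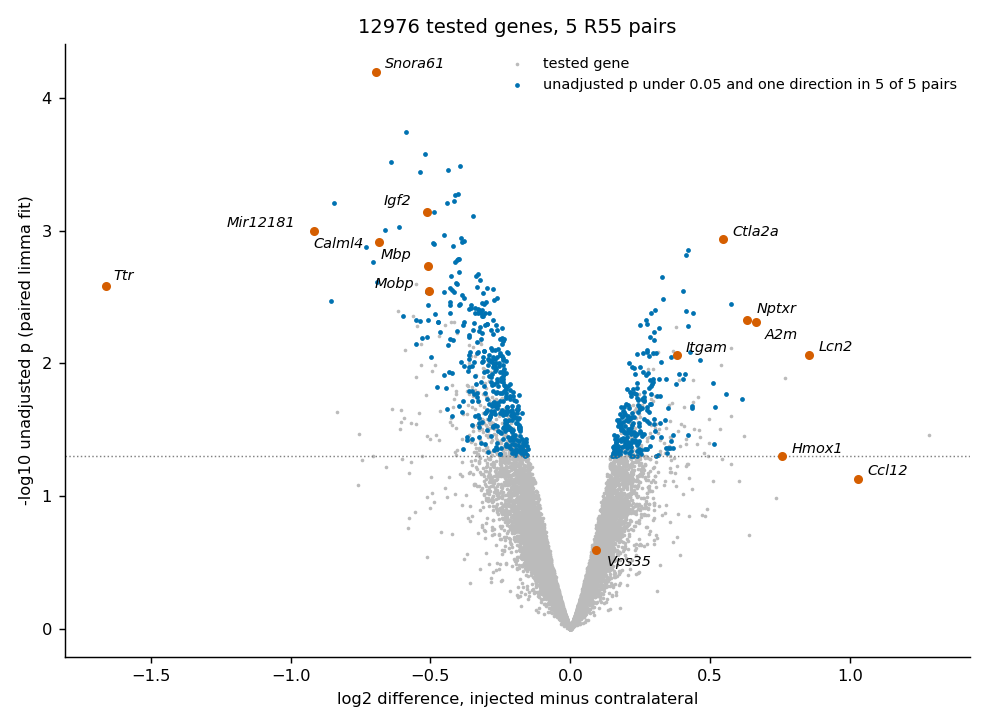
Log2 difference between injected and contralateral hemisphere (x axis) against −log10 of the unadjusted p (y axis) for the 12976 tested genes in the 5 R55 pairs. Blue points are genes with an unadjusted p under 0.05 and 1 direction in 5 of 5 pairs (235 higher, 401 lower), orange points are genes named in the text, and the dotted line marks an unadjusted p of 0.05.

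The retromer genes themselves measured nearly the same on both sides. Vps35, the scaffold of the core (chromosome 8, 85986024 to 86026431, all gene positions being on GRCm39), measured 63.5, 60.6, 47.1, 59.1 and 50.95 FPKM in the contralateral hemispheres of mice P, Q, R, AA and AB and 65.9, 59.8, 59.3, 59.6 and 54.5 FPKM, in the same order, in the injected ones. The ranges overlapped, and the difference was 0.09 (SE 0.076, adjusted p = 0.689), with a 95% interval from -0.08 to 0.27. For Vps26a and Vps26b, the alternative arrestin-like subunits, the differences were 0.05 (95% interval -0.14 to 0.25) and 0.05 (-0.09 to 0.20). For Vps29, the small subunit that holds the VPS35 solenoid, it was -0.10 (-0.34 to 0.14). Each of these intervals includes 0. With the length trend of each library removed, the difference of Vps26b was -0.05, and without mouse R that of Vps26a was -0.0011, so the sign of each depends on that choice.

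Of the 17 tested retromer core and partner genes, 10 were higher and 7 lower in the injected hemisphere, with a median difference of 0.01 against -0.01 over all tested genes. Those with an unadjusted p under 0.05 were subunits of the WASH complex, Washc4 (0.26, SE 0.091, adjusted p = 0.613) and Washc5 (0.17, SE 0.074, adjusted p = 0.613). Washc4 measured 7.52, 4.76, 6.21, 6.51 and 5.47 FPKM contralaterally and 7.81, 7.803, 7.44, 7.18 and 7.03 FPKM on the injected side. It was higher in the injected hemisphere of all 5 mice, by the most in mouse Q. Washc3, another subunit, lay the other way at -0.17 (SE 0.095, adjusted p = 0.628). The 11 tested cargo receptors and Vps13-family genes were all higher on average (11 of 11, median 0.14), and none had an unadjusted p under 0.05. Of all 12976 tested genes 5887 were higher. In mice Q and AB all 11 were higher, with medians of 0.56 and 0.30, while the medians of mice P, R and AA were 0.01, -0.03 and -0.04. Vps13a, a lipid transfer protein of membrane contact sites, differed by 0.21 (SE 0.11, adjusted p = 0.613). Sort1, which encodes sortilin, differed by 0.18 (SE 0.12, adjusted p = 0.648), and Sorl1, an APP-binding receptor linked to Alzheimer's disease, by 0.13 (SE 0.13, adjusted p = 0.729). App itself differed by 0.09 (SE 0.10, adjusted p = 0.772). Most of these are long genes, and length moved with the difference in mice Q and AB, as described below.

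Genes of reactive astrocytes and tissue injury were higher in the injected hemisphere, but not in every mouse. Of 20 tested genes of that list 17 were higher and 3 lower, with a median of 0.34 against -0.01 over all tested genes. At an unadjusted p under 0.05 there were 6, all of them higher (A2m, Stat3, Lcn2, Tnfrsf12a, Socs3 and Serpina3n). Over all tested genes, 2.88% were higher at that threshold. None of the 20 was higher in 5 of 5 pairs. The medians of the list were 0.41, 0.72 and 0.75 in mice R, AA and AB, and -0.07 and -0.22 in mice P and Q. Without mouse AB the median was 0.18, and without mouse P it was 0.46.

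Lcn2, an acute-phase siderophore-binding protein secreted by reactive astrocytes (chromosome 2, 32274645 to 32278264), measured 1.18, 2.74, 1.46, 6.18 and 2.31 FPKM contralaterally and 1.403, 2.68, 3.45, 19.9 and 10.2 FPKM on the injected side. It was higher in the injected hemisphere in 4 of 5 mice and nearly level in mouse Q, and mouse AA also had the highest contralateral value. The difference was 0.85 (SE 0.25, adjusted p = 0.597, limma). A2m, a broad protease inhibitor (chromosome 6, 121612335 to 121656186), measured 0.838, 0.817, 0.927, 1.403 and 0.446 FPKM contralaterally and 1.54, 0.618, 3.096, 3.22 and 2.14 FPKM on the injected side. The injected values of mice P, R, AA and AB lay above every contralateral value and that of mouse Q did not. Its difference was 0.66 (SE 0.18, adjusted p = 0.571, limma). Serpina3n, an astrocyte protease inhibitor, differed by 0.62 (SE 0.25, adjusted p = 0.613), with 96.0 FPKM in the injected hemisphere of mouse AA against 53.5 on its other side.

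Members of the cytokine signalling branch of the list pointed the same way in mice R, AA and AB. Stat3, the transcription factor of astrocyte reactivity, measured 14.1, 12.1, 15.6, 16.1 and 15.2 FPKM contralaterally and 13.6, 14.7, 21.2, 23.9 and 20.2 FPKM on the injected side. The 3 highest values were the injected hemispheres of mice R, AA and AB, and the difference was 0.31 (SE 0.091, adjusted p = 0.597, limma). Socs3, the feedback inhibitor of that pathway (chromosome 11, 117856905 to 117860898), measured 1.096, 1.67, 1.79, 1.304 and 1.502 FPKM contralaterally and 0.956, 1.69, 2.93, 4.58 and 3.34 FPKM on the injected side. It was nearly level in mice P and Q and higher in the injected hemisphere of the other 3 mice, with a difference of 0.50 (SE 0.19, adjusted p = 0.613). Tnfrsf12a, the receptor of the cytokine TWEAK, differed by 0.44 (SE 0.15, adjusted p = 0.613). Hmox1, the haem-degrading oxygenase, measured 4.07, 4.22, 7.98, 47.5 and 34.4 FPKM in the injected hemispheres of mice P, Q, R, AA and AB and 4.48, 5.22, 5.84, 15.3 and 6.82 FPKM in the contralateral ones (0.76, SE 0.33, adjusted p = 0.613). Gfap, the intermediate filament of astrocytes, was lower in the injected hemisphere in mice P and Q (124 and 142 against 152 and 253 FPKM) and higher in mice R, AA and AB (292, 554 and 314 against 177, 357 and 197 FPKM), so its mean difference was 0.18 (SE 0.23, adjusted p = 0.79).

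The promoter of Socs3 is shown because, of the 5 injury genes searched, it was the one with a STAT motif in the window. Of the 6 injury genes at an unadjusted p under 0.05, 5 have an entry among the RefSeq promoter sequences (GRCm38.p6, a build older than the GRCm39 of the alignments), each running from 250 bases before to 50 bases after the start. Searched on both strands, TTCNNNGAA, the STAT motif, was in 1 of the 5 and in 8.3% of all 32851 promoters. The AP-1 motif TGANTCA was in 0 of the 5 and in 7.81% of all, and the CRE, E-box and heat shock motifs were in 0 of the 5 as well. The Socs3 sequence lies on the minus strand at chr11:117969317-117969616 of GRCm38.p6, and the capitals mark the match, which begins 154 bases before the start.
Socs3 promoter: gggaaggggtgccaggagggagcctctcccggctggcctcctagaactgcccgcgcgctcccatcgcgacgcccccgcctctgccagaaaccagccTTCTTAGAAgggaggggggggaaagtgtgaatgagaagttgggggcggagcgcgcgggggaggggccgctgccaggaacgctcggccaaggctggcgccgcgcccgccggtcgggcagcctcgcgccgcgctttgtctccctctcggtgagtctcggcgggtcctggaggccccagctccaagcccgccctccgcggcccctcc
A match of letters is a description of the window and no measure of binding.

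**Figure D2:**
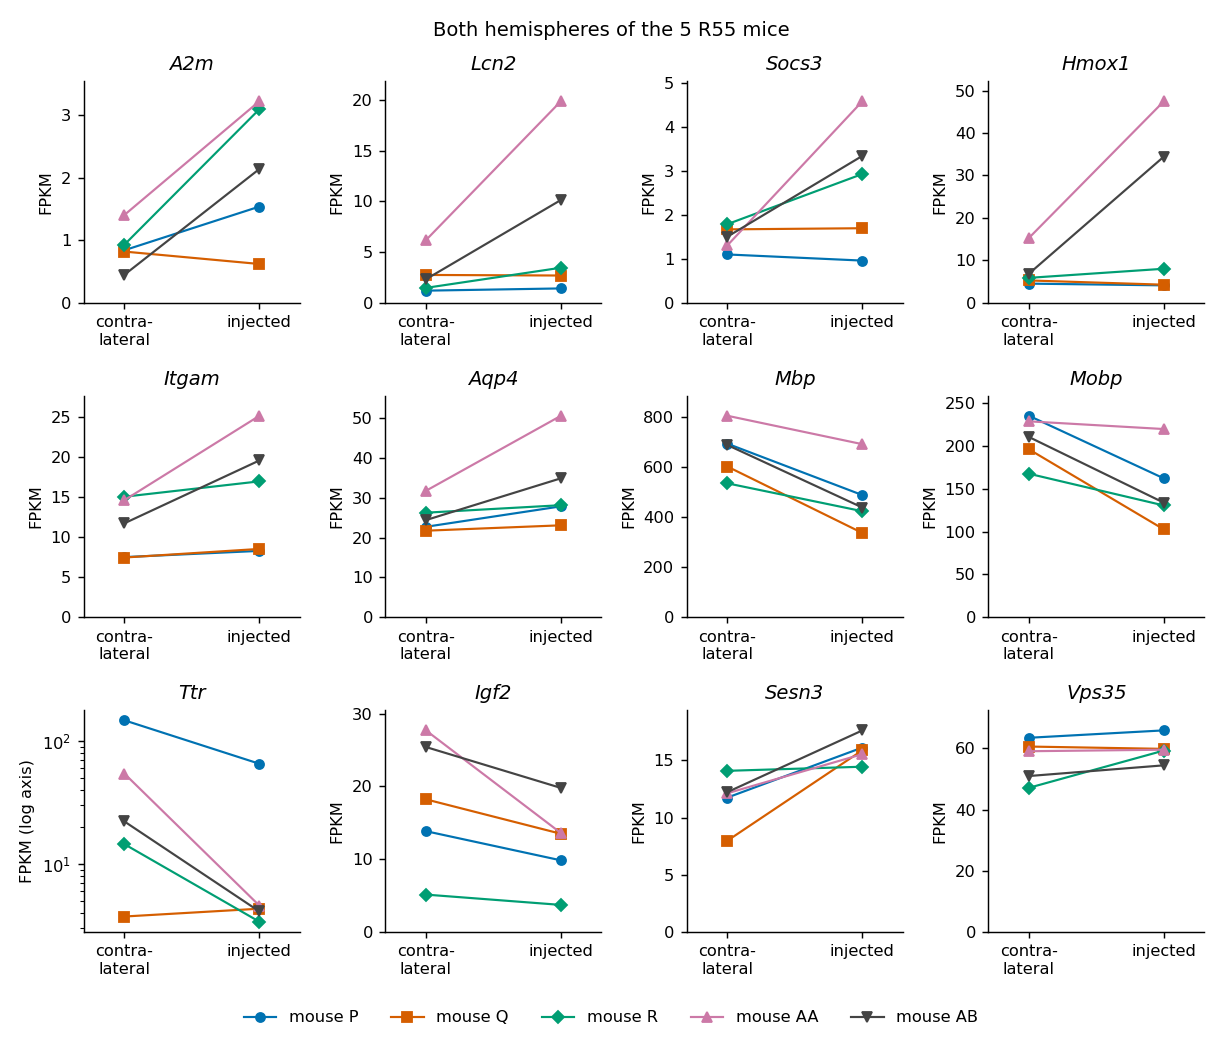
FPKM of 12 genes in the contralateral and injected hemisphere of the 5 R55 mice, 1 line per mouse (y axis in FPKM from 0, log axis for Ttr). For Lcn2, Socs3 and Hmox1 the lines of mice AA and AB climb and those of mice P and Q stay nearly flat, while Mbp and Mobp slope down and Itgam, Aqp4 and Sesn3 slope up in all 5 mice.

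Several chemokine and proliferation genes were high in the injected hemisphere of mouse AA and, less, of mouse AB. Ccl12, a monocyte-attracting chemokine, measured 1.37, 5.59, 3.71, 4.805 and 4.93 FPKM contralaterally and 1.71, 2.095, 9.52, 57.7 and 16.3 FPKM on the injected side. One library, the injected hemisphere of mouse AA, stood at 57.7 FPKM, and the difference was 1.03 (SE 0.51, adjusted p = 0.613). Ccl2, of the same family, reached 11.7 FPKM in that library and at most 3.06 FPKM in the other 9. Of the 20 tested cytokine, chemokine and NF-kB genes, 14 were higher and 6 lower with a median of 0.08, and 0 had an unadjusted p under 0.05. Of the 24 listed cell cycle genes 9 were tested, 9 were higher, and 3 had an unadjusted p under 0.05, namely the replication helicase subunits Mcm5 (0.36, SE 0.13, adjusted p = 0.613) and Mcm2 (0.30, SE 0.12, adjusted p = 0.613) and the cyclin Ccnd1 (0.32, SE 0.12, adjusted p = 0.613). The median of the list was 0.28, and by mouse it was -0.15 in P, 0.05 in Q, 0.33 in R, 0.78 in AA and 0.31 in AB. Top2a and Mki67, markers of dividing cells, were under the filter, with 4.01 and 1.59 FPKM in the injected hemisphere of mouse AA and 1.099 and 0.504 FPKM on its other side.

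Microglial genes showed no common direction. Of 18 tested homeostatic microglia genes 10 were higher and 8 lower (median 0.01), and of 25 disease-associated and phagocytic genes 8 were higher and 17 lower (median -0.11). The medians of the second list were -0.37 and -0.70 in mice P and Q and 0.12, 0.32 and 0.11 in mice R, AA and AB. Itgam, the integrin subunit CD11b of microglia and myeloid cells, was the exception with 1 direction in all mice. It measured 7.51, 7.46, 15.1, 14.6 and 11.7 FPKM contralaterally and 8.29, 8.53, 16.97, 25.2 and 19.6 FPKM on the injected side. The difference was 0.38 (SE 0.11, adjusted p = 0.597, limma), the largest in mice AA and AB. Gpnmb, a glycoprotein of phagocytic microglia, differed by 0.28 (SE 0.11, adjusted p = 0.613). Apoe, a lipid carrier made by astrocytes and by reactive microglia, measured 914, 1783, 1413, 1093 and 1232 FPKM in the contralateral hemispheres and 857, 836, 1038, 1115 and 1154 FPKM in the injected ones, and differed by -0.34 (SE 0.17, adjusted p = 0.613). The high contralateral value of mouse Q, 1783 FPKM, stood over the other 9 libraries.

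Interferon and antigen presentation genes lay in opposite directions in different mice. Of 29 tested genes 14 were higher and 15 lower, with a median of -0.01 and 0 at an unadjusted p under 0.05. In mouse AA 27 of the 29 were higher (median 1.07), whereas 28 of the 29 were lower in mice P (-0.34) and Q (-0.69). In mice R and AB the medians were -0.03 and 0.01. Ifi30, a lysosomal thiol reductase of antigen processing (chromosome 8, 71215403 to 71219334), measured 4.31, 5.95, 6.44, 11.5 and 6.71 FPKM contralaterally and 2.87, 5.97, 9.86, 26.3 and 13.3 FPKM on the injected side. It was higher in the injected hemisphere of mice R, AA and AB, lower in mouse P and level in mouse Q, with a difference of 0.42 (SE 0.21, adjusted p = 0.613). The study named 4 genes, Ifi30 among them, as those shared by its genes differing between injected and contralateral hemispheres and its genes differing between R55 and vehicle. They are a small part of the genes it reported for the injection. The others of the 4 lay as follows. Esyt1, a tether of the endoplasmic reticulum to the plasma membrane, differed by 0.11 (SE 0.10, adjusted p = 0.718). Cdca5, a cohesin regulator of dividing cells, and Mmp12, the macrophage metalloelastase, averaged under 1 FPKM and were not tested. Mmp12 measured 2.86 and 0.738 FPKM in the injected hemispheres of mice AA and AB and at most 0.163 FPKM in the other 8 libraries. Cdca5 measured 0.771 and 0.484 FPKM in the same libraries and at most 0.328 FPKM in the other 8. The list of these 4 genes was chosen by the study on these samples and is not independent evidence of a direction.

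**Figure D3:**
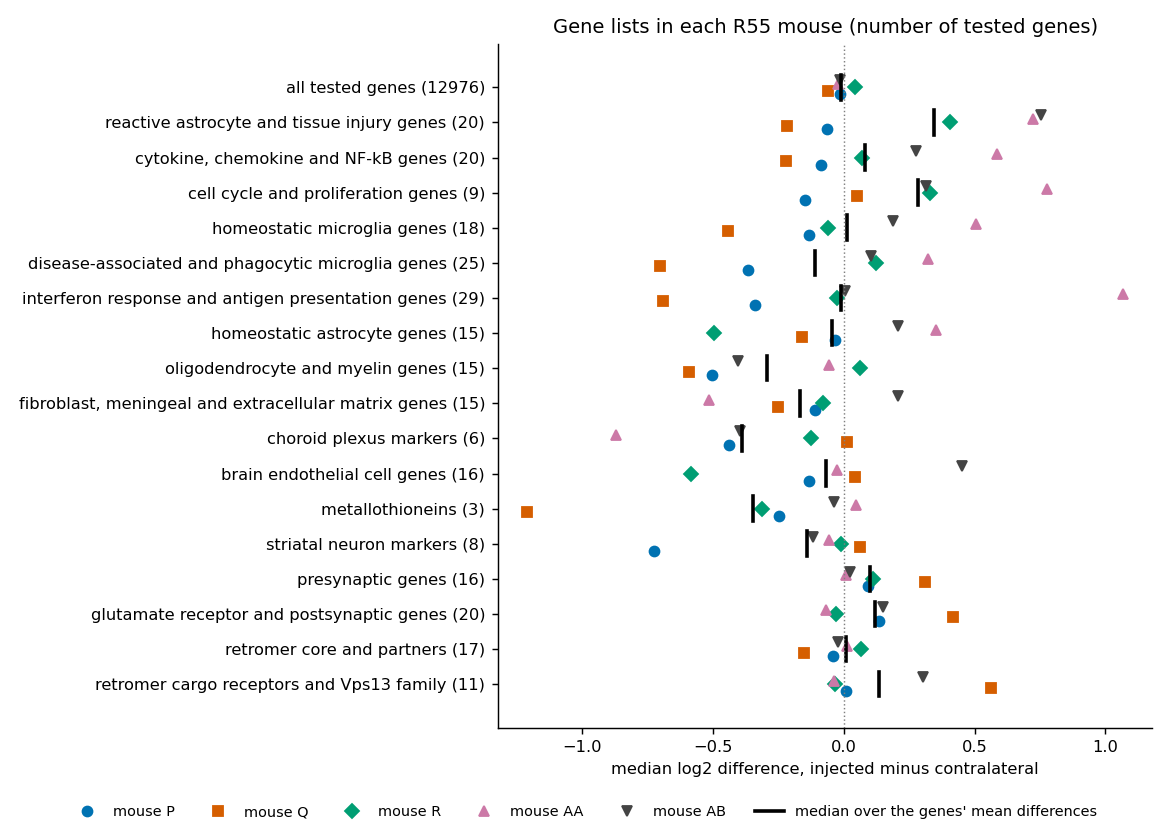
Median log2 difference (injected minus contralateral, x axis) over the tested genes of each list, 1 point per R55 mouse, with the number of tested genes in parentheses. The black bar is the median of the genes' mean differences. For the injury list mice R, AA and AB lie between 0.41 and 0.75 and mice P and Q below 0, and for the interferon list mouse AA stands alone at 1.07.

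Myelin genes were lower in the injected hemisphere. All 15 tested oligodendrocyte and myelin genes had a negative mean difference, 9 of 15 had an unadjusted p under 0.05, and 4 were lower in 5 of 5 pairs (Mbp, Mobp, Opalin and Gjc3). Over all tested genes, 5.06% were lower at that threshold and 5.26% were lower in 5 of 5 pairs. The median of the list was -0.30 against -0.01 over all tested genes. By mouse it was -0.51 in P, -0.59 in Q and -0.41 in AB, where 15 of 15 genes were lower, and 0.06 in R and -0.06 in AA. Mbp, a main structural protein of myelin (chromosome 18, 82493207 to 82603763), measured 693, 602, 535, 804 and 688 FPKM contralaterally and 488, 336, 423, 691 and 438 FPKM on the injected side. The injected value was below the contralateral one in each mouse, by the most in Q and the least in AA, although the groups overlapped. The difference was -0.51 (SE 0.12, adjusted p = 0.571, limma). Mobp, of the same compact myelin, measured 235, 196, 168, 229 and 210.5 FPKM contralaterally and 162, 102, 130.5, 219.8 and 134 FPKM on the injected side, a difference of -0.51 (SE 0.12, adjusted p = 0.571, limma). Opalin, a membrane glycoprotein of mature oligodendrocytes, differed by -0.47 (SE 0.13, adjusted p = 0.571), and Aspa, which cleaves N-acetylaspartate in these cells, by -0.43 (SE 0.11, adjusted p = 0.571). White matter is rich in these transcripts. The study's dissection was meant to leave out the corpus callosum, and how much white matter each block held was not tested. Oligodendrocyte precursor genes had a median of -0.02, with 3 higher and 5 lower of 8.

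Choroid plexus markers were lower in the injected hemisphere. Ttr, the thyroid hormone carrier made by choroid plexus (chromosome 18, 20797253 to 20807467), measured 148, 3.75, 14.5, 54.4 and 22.2 FPKM contralaterally and 65.4, 4.33, 3.396, 4.59 and 4.12 FPKM on the injected side. The contralateral values spanned a wide range, and mouse P kept 65.4 FPKM on its injected side. The difference was -1.66 (SE 0.40, adjusted p = 0.571, limma). Clic6, Kl and Folr1, other choroid plexus genes, differed by -0.61, -0.54 and -0.25 (adjusted p = 0.571, 0.571 and 0.613). All 6 tested markers of the list of 7 had a negative mean difference (median -0.39). Their summed level was 5.59 to 156 FPKM in the contralateral and 4.38 to 70.4 FPKM in the injected hemispheres, of which Ttr was the largest part in each library. In the vehicle mice the list medians ran from -2.63 to 0.996 and in the R33 mice from -1.31 to 3.19, so the R55 mice, from -0.87 to 0.01, lay inside the spread of the other treatments.

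Genes of the meninges were lower on average as well, though not in mouse AB. Of 15 tested fibroblast, meningeal and extracellular matrix genes 10 were lower and 5 higher (median -0.17), and 5 had an unadjusted p under 0.05, all lower (Igf2, Ptgds, Slc6a13, Ogn and Bgn). By mouse the median was -0.11 in P, -0.25 in Q, -0.08 in R and -0.52 in AA, and 0.21 in AB, where 10 of 15 genes were higher and where choroid plexus markers were lower (-0.40). Igf2, a growth factor of meningeal and choroid plexus cells (chromosome 7, 142204503 to 142220694), measured 13.8, 18.2, 5.12, 27.7 and 25.4 FPKM contralaterally and 9.83, 13.5, 3.702, 13.6 and 19.8 FPKM on the injected side. It was lower on the injected side of all 5 mice, with a difference of -0.51 (SE 0.10, adjusted p = 0.571, limma). Ptgds, the prostaglandin D synthase of meninges and oligodendrocytes, measured 786, 1998, 433, 1460 and 1637 FPKM contralaterally and 575, 996, 458, 788 and 1233 FPKM on the injected side. Only mouse R was not lower, and the difference was -0.53 (SE 0.16, adjusted p = 0.597). The collagens Col1a1 and Col1a2, which mark the same fibroblasts, had differences of -0.04 (SE 0.18, adjusted p = 0.942) and -0.17 (SE 0.14, adjusted p = 0.689).

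Markers of other regions also differed between blocks. Prkcd, abundant in thalamus, measured 50.7 FPKM in the injected hemisphere of mouse P and 3.08 to 6.20 FPKM in the other 9 libraries. Tcf7l2, another thalamic gene, measured 10.9 FPKM in that library and 0.935 to 1.36 FPKM in the others. C1ql2, a marker of the dentate gyrus of the hippocampus, measured 12.2, 13.3, 0.568, 26.2 and 3.37 FPKM contralaterally and 10.5, 1.805, 0.692, 9.74 and 3.56 FPKM on the injected side. It was highest in the contralateral hemispheres of mice AA, Q and P, and the difference was -0.74 (SE 0.33, adjusted p = 0.613). Adora2a, a striatal receptor, measured 3.71 FPKM in the contralateral hemisphere of mouse P and 0.78 to 1.32 FPKM in the other 9. The 8 striatal markers were lower on average (8 of 8, median -0.14), and without mouse P their median was -0.02. The part of these structures in the differences of other genes was not tested.

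Neuronal and synaptic genes differed little. The 20 cortical excitatory and layer genes had a median of 0.01 (11 higher, 9 lower) and the 16 interneuron genes one near 0 (8 higher, 8 lower). Of the 20, 3 had an unadjusted p under 0.05, all lower. They were the subplate genes Ccn2 (-0.39, SE 0.14, adjusted p = 0.613) and Cplx3 (-0.28, SE 0.11, adjusted p = 0.613) and Scnn1a, a marker of layer 4 neurons (-0.46, SE 0.13, adjusted p = 0.579). Rasgrf2, an upper-layer gene, lay the other way at 0.36 (SE 0.17, adjusted p = 0.613). Gad2, a GABA-synthesising enzyme, differed by 0.29 (SE 0.097, adjusted p = 0.613), and Pvalb, the calcium buffer of fast-spiking interneurons, by -0.33 (SE 0.14, adjusted p = 0.613).

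Of 16 presynaptic genes 12 were higher (median 0.10), and the active zone scaffolds Bsn (0.38, SE 0.10, adjusted p = 0.571) and Pclo (0.21, SE 0.088, adjusted p = 0.613) had an unadjusted p under 0.05. Of 20 glutamate receptor and postsynaptic genes 16 were higher (median 0.12). The metabotropic receptor Grm5 and the AMPA receptor subunit Gria4 were among those with an unadjusted p under 0.05, at 0.24 (SE 0.083, adjusted p = 0.613) and 0.21 (SE 0.077, adjusted p = 0.613). Gria4 measured 18.2, 13.5, 13.6, 14.4 and 14.7 FPKM contralaterally and 20.9, 18.3, 17.1, 15.6 and 14.9 FPKM on the injected side. It was higher in the injected hemisphere of each mouse, by the most in mouse Q, with overlapping groups. The medians of the postsynaptic list were 0.42 in mouse Q, 0.15 in AB, 0.13 in P, -0.03 in R and -0.07 in AA.

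Immediate early genes, which neurons induce within minutes of activity, had a median of 0.04 (20 higher and 8 lower of 28). Fos measured 9.63, 19.7, 8.76, 14.3 and 11.4 FPKM contralaterally and 10.5, 22.6, 14.1, 15.1 and 12.6 FPKM on the injected side. It was higher in 5 of 5 pairs, by the most in mouse R, with a difference of 0.23 (SE 0.092, adjusted p = 0.613). Nr4a2, an orphan nuclear receptor, measured 18.9 FPKM contralaterally and 6.13 FPKM on the injected side in mouse Q and differed by -0.47 (SE 0.19, adjusted p = 0.613). Among genes that respond to glucocorticoids, Ddit4, an mTORC1 inhibitor (chromosome 10, 59785491 to 59788492), measured 22.3, 23.8, 21.7, 26.7 and 22.1 FPKM contralaterally and 21.02, 17.5, 18.6, 20.03 and 16.6 FPKM on the injected side. It was lower in the injected hemisphere in all 5 mice, with a difference of -0.30 (SE 0.076, adjusted p = 0.571). Tsc22d3, the leucine zipper protein GILZ, was also lower in 5 of 5 pairs (-0.23, SE 0.076, adjusted p = 0.613), and Cdkn1a, the cell cycle inhibitor p21, was higher in 4 of 5 (0.37, SE 0.11, adjusted p = 0.597). The 11 tested genes of that list had a median of -0.01. Metallothioneins, zinc-binding proteins of astrocytes, had a median of -0.35, with Mt1 at -0.36 (SE 0.17, adjusted p = 0.613). Mt1 measured 562 FPKM contralaterally and 242 FPKM on the injected side in mouse Q, and in mouse AA 421 and 435 FPKM. Without mouse Q the median of the 3 genes was -0.14. Homeostatic astrocyte genes had a median of -0.04, with Aqp4, the water channel of astrocyte endfeet, higher in 5 of 5 pairs (0.32, SE 0.098, adjusted p = 0.597) and S100b lower in 4 of 5 (-0.30, SE 0.13, adjusted p = 0.613).

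The genes with the largest differences in 1 direction in all mice were taken next, up to 10 a side among those with an unadjusted p under 0.05. Higher in the injected hemisphere were Nptxr, Lmbrd2, Kcna3, Ptpn4, Ctla2a, Oip5os1, Gpr26, Mgat5, Xkr4 and Sesn3, with differences from 0.44 to 0.63. Nptxr, a neuronal pentraxin receptor that clusters AMPA receptors (chromosome 15, 79670552 to 79688967), measured 4.25, 4.21, 8.696, 2.77 and 6.12 FPKM contralaterally and 9.38, 11.96, 8.95, 4.14 and 8.28 FPKM on the injected side. It was more than doubled in FPKM in mice P and Q and nearly level in mouse R, with a difference of 0.63 (SE 0.17, adjusted p = 0.571, limma). Sesn3, a sestrin that restrains mTORC1 (chromosome 9, 14186363 to 14244397), measured 11.8, 7.98, 14.1, 12.1 and 12.2 FPKM contralaterally and 16.1, 15.9, 14.4, 15.6 and 17.6 FPKM on the injected side. Each injected value lay above every contralateral value, by little in mouse R, and the difference was 0.44 (SE 0.11, adjusted p = 0.571, limma). Ctla2a, a cysteine protease inhibitor, differed by 0.55 (SE 0.11, adjusted p = 0.571), by the most in mouse AB. Kcna3, a voltage-gated potassium channel, differed by 0.57 (SE 0.14, adjusted p = 0.571) and Ptpn4, a tyrosine phosphatase, by 0.56 (SE 0.19, adjusted p = 0.613). Mouse Q gave the largest difference for 9 of the 10, all but Ctla2a. Without mouse Q the differences of these 9 were 0.23 (Gpr26) to 0.46 (Nptxr), with Lmbrd2 at 0.33, Ptpn4 at 0.30, Oip5os1 at 0.27, Mgat5 at 0.30 and Xkr4 at 0.29.

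Lower in the injected hemisphere were 10 genes of which 7 are under 130 bp by inferred length, namely Mir12181, Snord96a, Gm36220, Mir12184, Snora61, Mir1188 and Mir421. Few fragments lie behind them. Snora61, which had the smallest p of all tested genes (-0.70, SE 0.096, adjusted p = 0.571), had 11, 18, 8, 6 and 7 fragments in the contralateral and 7, 6, 4, 3 and 6 fragments in the injected hemispheres of mice P, Q, R, AA and AB. Mir12184 had 0 to 3 fragments in any library. The libraries were made from polyadenylated RNA and do not measure mature small RNAs, and 6 of the 7 features lie inside a longer gene. The hairpins of 2 of these features, as RefSeq gives them (GRCm38.p6), are shown for their size. Capitals mark the mature sequences listed there, both arms for Mir12181 and only miR-421-5p for Mir421.
Mir12181: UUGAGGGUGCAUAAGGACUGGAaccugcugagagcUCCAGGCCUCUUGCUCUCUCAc
Mir421: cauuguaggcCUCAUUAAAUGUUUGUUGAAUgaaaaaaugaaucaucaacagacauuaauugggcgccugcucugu
The longer genes around the short ones also had lower means on the injected side in most cases. Coro6, a coronin that overlaps Mir12181, had a mean of 20.7 FPKM contralaterally and 13.7 FPKM on the injected side and differed by -0.55 (SE 0.16, adjusted p = 0.597), lower in 5 of 5 pairs. Snhg12, the host transcript of Snora61, differed by -0.33 (SE 0.12, adjusted p = 0.613), Rian, around Mir1188, by -0.30 (SE 0.11, adjusted p = 0.613), and Ftx, around Mir421, by -0.23 (SE 0.081, adjusted p = 0.613). Gpld1, which overlaps Mir12184, differed by 0.09 (SE 0.11, adjusted p = 0.79). The other 3 genes were 1700047M11Rik, Calml4 and Snhg20. Calml4, a calmodulin-like protein, measured 1.85, 0.843, 0.372, 1.68 and 1.04 FPKM contralaterally and 1.105, 0.0466, 0.206, 0.107 and 0.242 FPKM on the injected side. It differed by -0.69 (SE 0.15, adjusted p = 0.571). The contralateral values had the order of Ttr except that mice Q and R changed places, and the injected values followed it only in part. The differences of Calml4 and Ttr had the same sign in each R55 mouse but Q (-0.82 and 0.17). They had the same sign in every vehicle and R33 mouse, such as -2.28 and -6.63 in vehicle mouse J and 1.86 and 7.17 in R33 mouse N. Whether Calml4 varied with choroid plexus content was not tested.

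Among the R55 mice, the hemisphere difference of mouse Q had the widest spread and the highest correlation with gene length. The standard deviation of the log2 difference over all tested genes was 0.394 in mouse Q and 0.194, 0.216, 0.268 and 0.223 in mice P, R, AA and AB. Across genes, the difference had a Spearman correlation with length of 0.71 in mouse Q, 0.48 in AB, 0.12 in AA, 0.07 in P and -0.14 in R, where genes of 1 library pair share depth and RNA quality. With genes divided by length into 10 bins, the shortest bin (median 868 bp) had a median difference of -0.61 in mouse Q and the longest bin (median 8320.5 bp) one of 0.38, and in mouse AB these were -0.20 and 0.16. With the length trend removed from each library, 0 genes were called (smallest adjusted p = 0.591, limma) and 1007 had an unadjusted p under 0.05, of which 678 were among the 1031. The myelin median was then -0.28, the injury median 0.33, the postsynaptic median 0.00 and that of cargo receptors and Vps13 genes 0.05. Without mouse Q these were -0.23, 0.45, 0.06 and 0.04. The Vps35 difference was 0.09 with the trend removed and 0.12 without mouse Q.

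**Figure D4:**
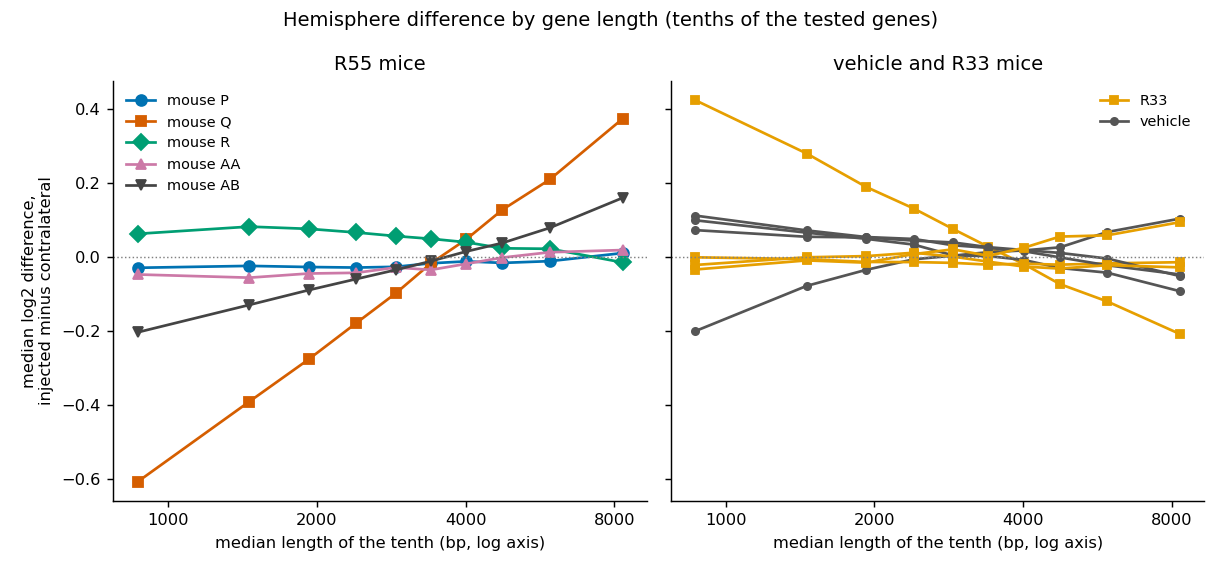
Median log2 difference (injected minus contralateral, y axis) in 10 bins of the tested genes ordered by length (x axis, median length in bp, log scale), 1 line per mouse, R55 mice on the left and vehicle and R33 mice on the right. Mouse Q climbs from -0.61 to 0.38 and mouse AB from -0.20 to 0.16. The other R55 mice stay between -0.0548 (AA) and 0.0831 (R), and 1 R33 mouse runs the other way from 0.43 to -0.21.

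Whether the hemisphere difference of the R55 mice differed from that of vehicle mice was tested on the differences of the single mice, 5 against 4. No gene was called (smallest adjusted p = 0.806, limma). At an unadjusted p under 0.05 there were 770 genes, 318 with a larger (2.45%) and 452 with a smaller difference (3.48%) in R55 mice, and with median-of-ratios scaling the split was 411 and 342. The number was 324 without vehicle mouse L, 473 without mouse Q and 1157 without mouse R. The genes with the smallest p were Hpdl, Fkbp7, Ccdc28b, BC025920 and Ddit4 on the lower side and Tenm1, Fam217b, Marchf1, Sesn3 and Fgd4 on the higher side. For Ddit4 the mean difference was -0.30 in R55 and 0.14 in vehicle mice (-0.44 apart, SE 0.096, adjusted p = 0.806), and for Sesn3 0.44 and -0.15 (0.59 apart, SE 0.15, adjusted p = 0.806). Fkbp7, a proline isomerase of the endoplasmic reticulum, had means of -0.24 and 0.23 (-0.47 apart, SE 0.096, adjusted p = 0.806). Of 20 postsynaptic genes 5 had an unadjusted p under 0.05, all with the larger difference in R55 mice, and 2 did with the length trend removed and 2 without mouse J or Q, while single other mice left out gave 3 to 6. Over all genes, 601 had an unadjusted p under 0.05 with the length trend removed, of which 408 were among the 770. Tenm1, a teneurin of synaptic adhesion, had means of 0.36 and -0.32 (0.68 apart, SE 0.16, adjusted p = 0.806).

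The median of the injury list was above 0 with each treatment. Lcn2 had a mean difference of 0.85 in R55, 0.80 in vehicle and 1.06 in R33 mice, and the R55 minus vehicle value was 0.05 (SE 0.70, adjusted p = 0.989). For A2m the means were 0.66, 0.51 and 0.99 (0.15 apart, SE 0.25, adjusted p = 0.887), and for Stat3 0.31, 0.26 and 0.25 (0.06 apart, SE 0.13, adjusted p = 0.921). The median of the injury list was 0.34 in R55, 0.34 in vehicle and 0.32 in R33 mice, and 0 of its 20 genes had an unadjusted p under 0.05 in either difference test. A p that misses the threshold does not show that the treatments act alike. By mouse the vehicle medians ran from 0.16 to 0.38 and the R33 medians from -0.02 to 0.92, against -0.22 to 0.75 in R55 mice.

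The myelin genes had no common direction in vehicle mice. The median of the list was -0.30 in R55, 0.31 in vehicle and 0.23 in R33 mice, and without vehicle mouse L that of vehicle was -0.09. Single vehicle mice were at 0.53, -0.65, 1.55 and -0.12 (J, M, L and AH) and single R33 mice from -0.21 to 0.69, so the R55 range, -0.59 to 0.06, lay within that of vehicle. The striatal markers had medians of -0.45, 0.15, 1.84 and -0.06 in the same vehicle mice, and from -0.75 (O) to 1.88 (N) in R33 mice. In R55 mice their medians ran from -0.73 to 0.06. The part of neighbouring tissue in the comparisons of treatments was not tested. For Mbp the R55 minus vehicle value was -0.76 (SE 0.35, adjusted p = 0.806), and without mouse L it was -0.30, with a vehicle mean of -0.21. The number of the 15 myelin genes at an unadjusted p under 0.05 was 3, all smaller in R55 mice, and it was 0 without mouse L, J, P, Q or AB and 14 without mouse M. Ptgds had means of -0.53, 0.24 and 0.40 in R55, vehicle and R33 mice (-0.78 apart, SE 0.21, adjusted p = 0.806 against vehicle). For the retromer core, Vps35 gave 0.14 (SE 0.095, adjusted p = 0.806) and Vps29 -0.09 (SE 0.14, adjusted p = 0.887).

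R55 and R33, given at the same concentration, volume and time, were compared in the same way, 5 mice against 4, as the other of the 2 pairs of treatments tested. No gene was called (smallest adjusted p = 0.331, limma). There were 1515 genes at an unadjusted p under 0.05, 686 with a larger (5.29%) and 829 with a smaller difference (6.39%) in R55 mice, and with median-of-ratios scaling the split was 825 and 693. The number was 839 without R33 mouse AD, whose difference had a Spearman correlation of -0.60 with length, and 886 without mouse Q. Atp2b4, a plasma membrane calcium pump, had the smallest p and was named after its values were seen. Its mean difference was 0.32 in R55 and -0.87 in R33 mice, 1.19 apart (SE 0.21, adjusted p = 0.331, limma). Without R33 mouse K it was 1.41 apart (adjusted p = 0.041). For the injury genes the R55 minus R33 values were -0.20 (SE 0.70, adjusted p = 0.919) for Lcn2 and -0.33 (SE 0.25, adjusted p = 0.584) for A2m. For the retromer core they were 0.12 (SE 0.095, adjusted p = 0.595) for Vps35, 0.05 (SE 0.11, adjusted p = 0.858) for Vps26a, 0.09 (SE 0.077, adjusted p = 0.636) for Vps26b and -0.12 (SE 0.14, adjusted p = 0.735) for Vps29. Among 16 presynaptic genes, 4 had an unadjusted p under 0.05 and all 4 had the larger difference in R55 mice, as did 7 of 20 postsynaptic and 7 of 28 immediate early genes. With the length trend removed these were 3 presynaptic, 3 postsynaptic (and 1 smaller) and 9 immediate early genes, and without R33 mouse AD 3, 3 and 3. Over all mice left out in turn the numbers ran from 2 to 6 (fewest without O), 3 to 9 (fewest without AD) and 3 to 11 (fewest without AD). Bsn had means of 0.38 in R55 and -0.30 in R33 mice (0.68 apart, SE 0.18, adjusted p = 0.377). Of the 15 fibroblast and meningeal genes 7 were smaller and 1 larger in R55 mice at that threshold (4 and 1 without mouse AD), with Ptgds at -0.93 (SE 0.21, adjusted p = 0.377).

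**Figure D5:**
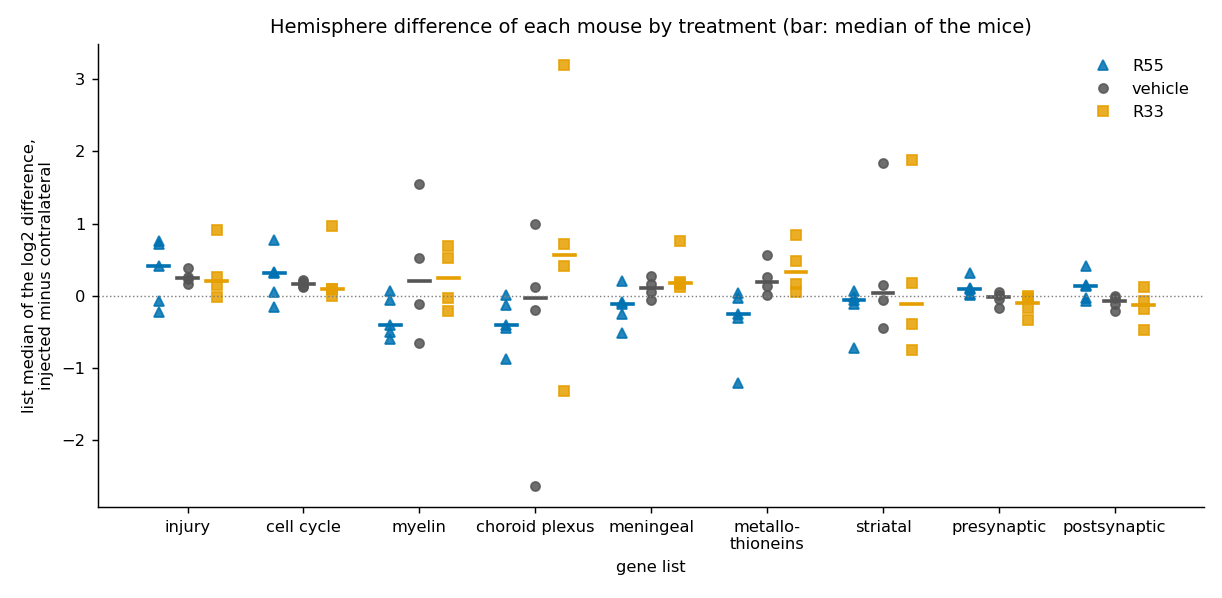
List medians of the log2 difference (injected minus contralateral, y axis) for 9 gene lists, 1 point per mouse, for R55 (triangles), vehicle (circles) and R33 (squares), with a bar at the median of the mice. The points of the treatments overlap for the injury, myelin, choroid plexus and striatal lists, and the widest spread, from -2.63 to 3.19, is that of choroid plexus in vehicle and R33 mice.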

How the data were processed

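Polyadenylated RNA of each cortical block was sequenced as a stranded library on a NextSeq instrument. Reads were aligned with HISAT2 on GRCm39, and FPKM per gene is the unit the authors deposited. The counting tool and annotation are not given in the sources used here.

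The deposited table holds 26264 genes and 32 libraries, of which 27 match the labels analysed here and 5 were not used. The total fragments of each library were inferred from the steps between low FPKM values. Gene lengths were inferred as well, as the smallest length that put every value of a gene within 0.01 of a whole fragment. That 100% of values lay within 0.01 follows from this choice, and a true length could be a multiple of the inferred one. The recovered fragments summed to the library totals within a relative gap of 7.2e-07. Analyses used R 4.3.3 with limma 3.58.1, Python 3.11.15, pandas 2.3.3 and NumPy 2.4.6. Of the gene names 23898 matched GENCODE and 2324 RefSeq, and 42 were kept as given. Gene positions are from GENCODE M39 on GRCm39.

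The fit took the 12976 genes that averaged 1 FPKM or more across 27 libraries, on log2(FPKM + 1), a scale that understates changes of low genes, with limma and a trended prior. The model held mouse and hemisphere, and p-values were adjusted over all tested genes by Benjamini-Hochberg with a threshold of 0.05. The hemispheres of a mouse come from 1 animal, so the mouse pairs them. Deviations of the hemispheres from their group means correlated at 0.546, -0.0787, 0.465, 0.454 and 0.371 in mice P, Q, R, AA and AB, and at -0.0899 on average between mice. Centring on the group means largely sets the value between mice, so it is no separate baseline. Treatments were compared on the per-mouse differences of 13 mice. The fits were tested on simulated data. Alternatives were another pseudocount, other filters, median-of-ratios scaling, removal of the length trend, no block, a shared spread, voom on the recovered fragments (0 genes called) and leaving out each mouse.

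The members and gene lists were chosen with earlier results of these data known. Genes were named by rule: called genes up to 10 a direction, filled to 10 with genes of unadjusted p under 0.05 and 1 direction in 5 of 5 pairs by size, up to 4 tested genes of each list by p, the 4 genes the study named, the retromer core, and up to 5 genes a direction by p in the R55 minus vehicle test. Further list members, host genes, App, Atp2b4 and the regional markers beyond these were named after their values were seen. Some genes that the rule names are not reported here. Promoters and hairpins are RefSeq sequences on GRCm38.p6.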

Additional observations from a re-analysis of the deposited data

Results flagged for a closer look

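In 15 of 176 sets of 5 pair differences (8.52%), 1 mouse stood apart from the other 4 by Dixon's test. The sets come from the same 5 mice, overlap in genes and hold genes chosen on these data. The rate of about 1 in 20 for independent sets is therefore no yardstick for that share. Mouse Q was the mouse apart in 8 sets, mouse P in 3, and mice AA and R in 2 each. All values are log2 differences, injected minus contralateral.

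Mouse Q stood apart, on the high side, for the channel gene Kcna3 (1.32), the phosphatase gene Ptpn4 (1.59), the non-coding Oip5os1 (1.49), the synaptic vesicle gene Syn1 (0.42) and the autophagy kinase gene Ulk1 (0.45). It stood apart on the low side for the autophagy gene Gabarap (-0.70), for Mt3 (-1.17) and for the metallothionein list (median -1.21). The difference of mouse Q also followed gene length, and the part of length in these values was not tested gene by gene. Mouse P stood apart for Prkcd (3.28), a thalamic marker, for the striatal list (median -0.73) and for Cdkn1a (-0.13). Mouse R stood apart for Fos (0.63) and for Gpr17 (-0.55), a receptor of maturing oligodendrocytes. Mouse AA stood apart for the meningeal genes Igf2 (-0.98) and Ogn (-1.29).

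For 2 lists every R55 mouse lay on 1 side of 0 and every R33 mouse on the other, and no test was run on list medians. The red blood cell list, here the single tested gene Alas2, was at -0.28 in R55 mice, and R33 mice ran from 0.01 to 1.17. As a gene, Alas2 had an R55 minus R33 value of -0.72 (SE 0.21, adjusted p = 0.377, limma). The presynaptic list had a median of 0.10 in R55 mice, which ran from 0.0063 (AA) to 0.31 (Q), and R33 mice ran from -0.34 to -0.0039 (N). The 2 treatments thus nearly met at 0.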

How the results depend on the processing

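No gene was called between the hemispheres under any alternative except without a filter on low values, where 1 was called, Mir674 (-0.45, adjusted p = 0.0069, limma), which had 5 fragments over 5 libraries. The number of genes at an unadjusted p under 0.05 was 661 with a mean of at least 5 FPKM, where 8818 genes were tested, and 1497 with no filter, where 21161 were. With 1 mouse left out it ran from 533 (without AB) to 1450 (without R). Without the replicate block, that is without pairing by mouse, 0 genes were called and 758 had an unadjusted p under 0.05, and the block changed no call. The number of genes with 1 direction in every remaining pair ran from 1661 to 2992 with 4 pairs, since fewer pairs must agree. R55 minus vehicle called 0 genes in all alternatives. R55 minus R33 called 0 to 1 gene when 1 mouse was left out.

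Named genes had reversed directions in 6 cases with a mouse left out and in 4 under other alternatives, and the cause was not tested. With the length trend removed S100a9 was at 0.0515, S100a8 at 0.17, Npy at 0.0445 and Vps26b at -0.0473. Leaving out 1 mouse gave ranges of -0.0885 to 0.37 for Irgm1, -0.25 to 0.13 for S100a8, -0.084 to 0.10 for Gpr17, -0.0207 to 0.87 for Prkcd and -0.0011 to 0.11 for Vps26a. The choroid plexus median moved from -0.39 to -0.92 with a pseudocount of 0.1 and to -1.13 with voom. The stricter filter left only Ttr of that list, so the value there, -1.66, is the difference of Ttr alone. Genes under about 1 FPKM and features under 130 bp rest on few fragments.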

Other observations

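Vascular genes followed the mouse. Of 16 endothelial genes 4 were higher and 12 lower (median -0.07), and the medians were -0.58 in mouse R, with 16 of 16 lower, and 0.45 in mouse AB, with 14 of 16 higher. The 8 mural genes ran alike, at -0.51 in mouse R and 0.35 in mouse AB. Acta2, smooth muscle actin, had a mean difference of -0.55 (adjusted p = 0.613), and Itm2a, an endothelial membrane protein, was lower in 5 of 5 pairs (-0.27, adjusted p = 0.613).

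Of 19 heat shock and unfolded protein response genes 15 were higher (median 0.04), with the inducible chaperone Hspa1b at 0.22 (adjusted p = 0.613) and Hyou1, a chaperone of the endoplasmic reticulum, higher in 5 of 5 pairs (0.13, adjusted p = 0.613). The 9 autophagy genes had a median of -0.01 and 0 at an unadjusted p under 0.05. Sult1a1, a sulfotransferase, was lower in 5 of 5 pairs (-0.38, adjusted p = 0.571). Of 18 neutrophil and monocyte markers 3 were tested, all with negative means. Of 10 lymphocyte markers 0 passed the filter, and 1 of 8 border macrophage markers did. Of 7 red blood cell transcripts 4 were listed at 0 in every R55 library. Alas2, of the same list, measured 1.003 to 5.71 FPKM there, and whether the 4 genes at 0 were counted at all was not tested.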
